A study of Mus musculus with 2 samples.

Results

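The cells described here were T cells of mouse MC38 tumours that carried RNA of CD3 and CD8 together with Ly6c2, and that were neither cycling nor in one of several other CD8 states. They numbered 1138 of 67031 cells that passed the quality filters, 284 of 32608 in the control library and 854 of 34423 in the treated library. Each had at least 500 unique molecular identifiers (UMIs, each standing for 1 counted RNA molecule), at most 10% of UMIs from mitochondrial genes, at least 1 UMI of Cd3d, Cd3e or Cd3g, and at least 1 of Cd8a or Cd8b1. None had a UMI of Cd4, of Foxp3, the regulatory T cell factor, of Csf1r, the macrophage growth factor receptor, or of Tcf7, a factor of naive and stem-like T cells. Cells with more than 2 UMIs over Gzmd, Gzme, Gzmf and Gzmg, with more than 2 over the proliferation genes Mki67, Top2a, Birc5 and Pclaf, or with both Pdcd1 and Havcr2 (the checkpoint receptors PD-1 and TIM-3) were left out. The last criterion was at least 1 UMI of Ly6c2. The 818 cells that met every criterion except the last, 538 control and 280 treated cells, served as the comparison and are called the Ly6c2-negative cells. The cells were thus chosen by measured UMIs of these genes, whose values are given as a description.

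MC38 is a mouse colon carcinoma line, and the tumours were taken on day 19 after inoculation, digested with DNase I and collagenase IV, and sorted for live leukocytes by their surface protein CD45. The control group (Ctrl) and the treated group (BiDT) both consisted of MC38-bearing mice, and 5 biological replicates of a group were pooled to make its 1 library. The labels do not spell out BiDT. From the title, the series concerns a protein that joins anti-TIM3 to interferon, and exhausted CD8 T cells that bear TIM3. Strain, sex, dose, schedule and what the control mice received are not given in the sources used here, and the same protocol text, which mentions BiDT treatment, accompanies both samples. With 1 library per group no difference could be tested, and all intervals are 95% intervals of counting error only.

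Ly6c2 encodes Ly6C2, a small surface protein held in the membrane by a lipid anchor, which antibodies to Ly6C detect along with its close relative Ly6C1. On mouse CD8 T cells Ly6C is known as a marker of antigen-experienced and memory cells, and its expression is known to rise with type I interferon. It is also the classical marker of inflammatory monocytes. Type I interferons bind the receptor of IFNAR1 and IFNAR2 and act through kinases and transcription factors, IRF9 among them, on promoters that carry the interferon-stimulated response element, and the genes switched on there encode antiviral proteins.

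The Ctrl library held 34310 barcodes with a median of 4126 UMIs and the BiDT library 34996 with a median of 2652. The Ly6c2 cells had medians of 2900.5 and 2182.5 UMIs and the Ly6c2-negative cells of 2487.5 and 1748. Summed over cells, the Ly6c2 cells gave 965347 UMIs in Ctrl and 2333700 in BiDT, and levels below are in CPM, UMIs scaled to an equal total for every sum. The libraries share 713 barcode sequences, which 6 Ctrl and 14 BiDT Ly6c2 cells bear. Malat1, a nuclear RNA, made up 0.430% of the Ly6c2 cells' UMIs in Ctrl and 0.761% in BiDT.

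The label of these cells as T cells was checked against genes that the criteria did not use. A UMI of the receptor constant genes Trac, Trbc1 or Trbc2 was present in 94.0% of the Ctrl and 82.4% of the BiDT Ly6c2 cells, and a UMI of the T cell genes Thy1, Cd2 or Lck in 97.2% and 92.0%. In Ly6c2-negative cells receptor genes were found in 90.9% and 70.4%. RNA of other cells was present as well, since 80.3% of Ctrl and 58.7% of BiDT Ly6c2 cells held at least 1 UMI of the macrophage genes Lyz2, Apoe, C1qa, C1qb or C1qc. In cells thinned to 1000 UMIs each, Lyz2 was found in 31.0% and 19.0% of the Ly6c2 cells. It was found in 18.5% and 10.5% of non-immune cells, which should lack it and were deeper before thinning. A list of monocyte and macrophage markers summed to 2534 CPM in Ctrl and 3125 in BiDT Ly6c2 cells. NK cell markers summed to 1284 and 1109 CPM, dendritic cell markers to 2646 and 2243, and neutrophil markers to 326 and 709. Xcr1, a dendritic cell receptor, and Klra8, an NK cell receptor, were at 0 in the Ctrl Ly6c2 cells. In the BiDT Ly6c2 cells no gene of the dendritic or the NK list was at 0. Single BiDT cells stood apart, with 3420 UMIs of B and plasma cell markers in 1 cell and 903 UMIs of stromal markers in another.

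More CD8 T cells carried Ly6c2 in the BiDT than in the Ctrl library. Of the cells that met all other criteria, 34.6% were Ly6c2 cells in Ctrl (284 of 822, exact interval 31.3 to 37.9%) and 75.3% in BiDT (854 of 1134, 72.7 to 77.8%), a 2.18-fold higher share. The Ly6c2 cells were 0.871% of all filtered cells in Ctrl (0.773 to 0.978%) and 2.48% in BiDT (2.32 to 2.65%), 2.85-fold higher. The Ly6c2-negative cells went the other way, from 1.65% of filtered cells in Ctrl to 0.813% in BiDT. Cells meeting the CD3, CD8, Cd4, Foxp3 and Csf1r criteria were 6.22% and 10.9% of filtered cells, and the Ly6c2 cells were 14.0% and 22.7% of them. Since shares of a whole add to a fixed total, a larger number of these cells and a smaller number of others cannot be told apart.

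The BiDT cells were the shallower ones, and the share was therefore also taken at equal depth. With each cell thinned to 1000 UMIs, which left out no cell, Ly6c2 was found in 19.0% of the same 822 Ctrl cells (16.4 to 21.8%) and 60.3% of the 1134 BiDT cells (57.4 to 63.2%). Detection was also higher in BiDT in cells that are not leukocytes. In non-immune cells thinned alike, with Sparc but neither Ptprc nor Cd3 RNA and with unthinned medians of 9452 UMIs in Ctrl and 5766 in BiDT, Ly6c2 was found in 1.62% and 13.0%. Unthinned, the non-immune shares were 11.5% and 52.7%. Whether this is free RNA or expression of their own was not tested. Both thinned T cell shares lay above the thinned non-immune shares, and the interval of the BiDT T cell share did not reach that of the non-immune cells (10.3 to 16.0%). The T cells had unthinned medians of 2600.5 and 2082.5 UMIs. Thinning thus took a larger part of the UMIs from the non-immune cells, and their thinned shares can understate free RNA in the T cells. The unthinned T cell shares were 34.6% and 75.3%.

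Ly6c2 was detected more often in BiDT in every other thinned population compared. It was found in 24.3% of Ctrl and 75.6% of BiDT CD8 T cells with both Pdcd1 and Havcr2, in 19.3% and 70.2% of cycling CD8 T cells, and in 38.8% and 70.4% of the 80 and 125 CD8 T cells with Tcf7. CD4 T cells reached 3.36% and 21.6%, NK cells 26.9% and 40.6%, and macrophages or monocytes 16.7% and 39.7%. Among the CD8 T cells of BiDT, the Ly6c2 criterion thus split a population in which the gene was common in each state. The intervals of the cycling (67.9 to 72.4%), Tcf7 (61.6 to 78.2%) and Pdcd1 and Havcr2 cells (71.5 to 79.5%) overlapped in part. The population before the Ly6c2 criterion, at 60.3% (57.4 to 63.2%), was lower, and its interval overlapped only that of the Tcf7 cells.

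**Figure D1:**
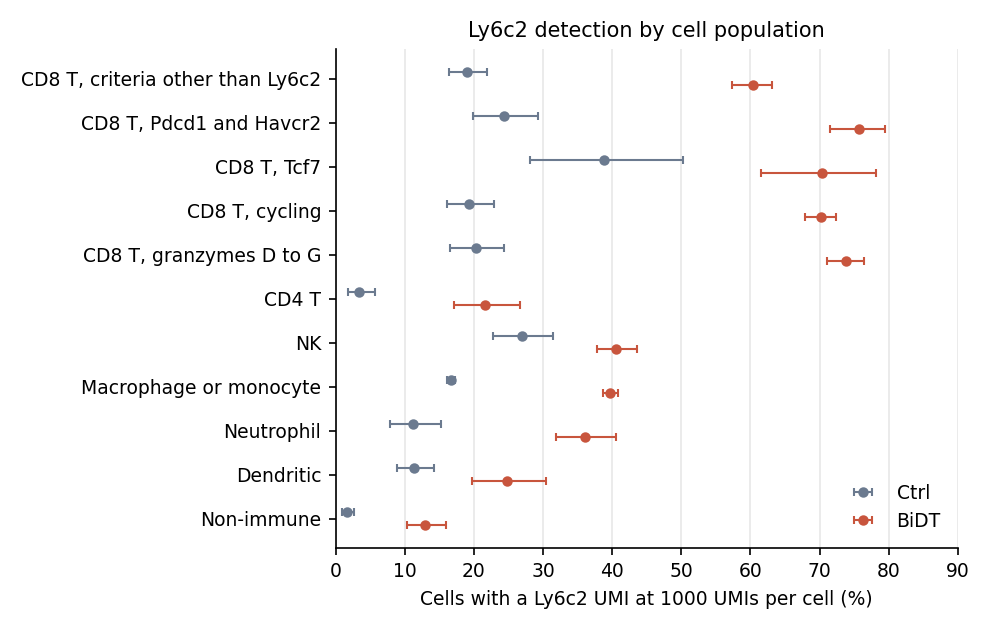
Share of cells with at least 1 Ly6c2 UMI after thinning each cell to 1000 UMIs, in percent, by population and library, with exact 95% intervals of counting error. The population before the Ly6c2 criterion sits at 19.0% in Ctrl and 60.3% in BiDT, above the non-immune cells at 1.62% and 13.0%. The non-immune cells were deeper before thinning, so their shares can understate free RNA in the T cells.

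Among themselves the Ly6c2 cells held from 1 to 58 Ly6c2 UMIs in Ctrl, with a median of 2, and from 1 to 69 in BiDT, with a median of 3. Just inside the threshold, with exactly 1 UMI, lay 116 Ctrl cells (40.8%) and 175 BiDT cells (20.5%), and just outside it, at 0, lay the 538 and 280 Ly6c2-negative cells. At least 10 UMIs were held by 16 Ctrl cells (5.63%) and 165 BiDT cells (19.3%). The summed level was 979 CPM in Ctrl and 2420 CPM in BiDT. The 2 libraries overlapped over the whole range of UMIs per cell, and BiDT cells were more often in its upper part. With a threshold of 2 UMIs in place of 1 the log2 ratio of BiDT to Ctrl in the share of otherwise equal cells was 1.55 rather than 1.12.

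**Figure D2:**
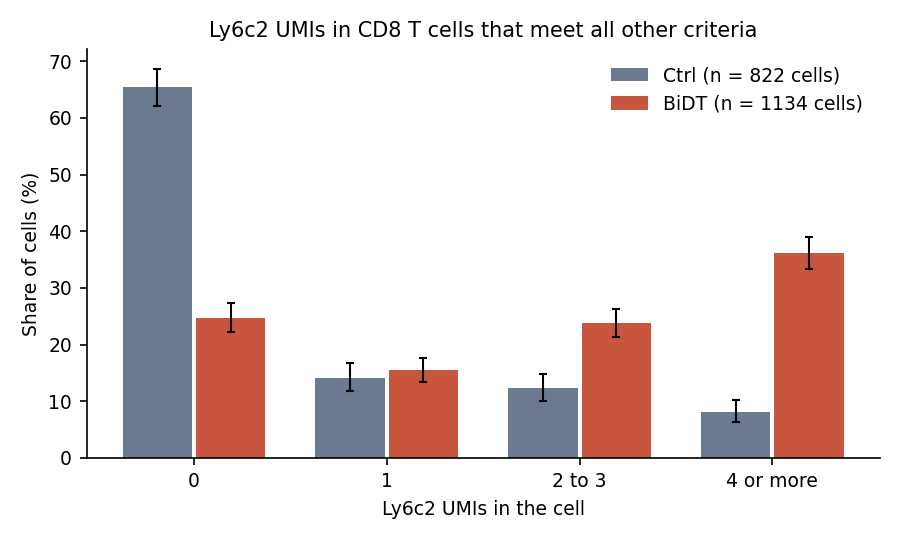
Percent of cells meeting all other criteria that held 0, 1, 2 to 3, or 4 and more Ly6c2 UMIs, in the Ctrl and the BiDT library, with exact 95% intervals of counting error. In Ctrl 538 of 822 cells lay at 0, and in BiDT 410 of 1134 cells held 4 or more.

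A list of genes that type I interferon induces was higher in BiDT Ly6c2 cells. Of its 52 genes with at least 50 UMIs over both sums, 52 were at least 1.5 times higher in BiDT and 0 lower, against 16.4% higher and 5.75% lower of all 7220 genes measured. Their median log2 ratio was 2.61, against 0.10 over all genes, and ranged from 1.07 (Ifitm3, an inhibitor of viral entry) to 4.29. Isg15, a ubiquitin-like modifier, had 103 UMIs in 46 of 284 Ctrl cells and 3163 UMIs in 687 of 854 BiDT cells. That was 107 CPM (87.1 to 129) and 1355 CPM (1308 to 1403), a log2 ratio of 3.67 (3.38 to 3.96). Usp18, which removes Isg15 and restrains the interferon receptor, went from 12 UMIs (12.4 CPM) to 569 UMIs (244 CPM, log2 ratio 4.29, 3.48 to 5.25). Rsad2, the antiviral enzyme viperin, stood at 24.9 and 487 CPM, a log2 ratio of 4.29 (3.71 to 4.94). Some interferon-induced genes outside the list were lower in BiDT, among them Ifitm1, at 532 and 288 CPM (-0.88), Ifitm2, at 338 and 215 CPM (-0.65), and Ifi27, at 88.1 and 38.6 CPM (-1.19).

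Factors of the pathway that belong to the same list were higher too, while a separate list of receptors and kinases was not. Irf7, the factor that amplifies interferon production, was at 44.5 and 498 CPM (3.48). Stat2 was at 60.1 and 224 CPM, and Irf9, its DNA-binding partner, at 55.9 and 148 CPM. Bst2, the tetherin that holds virions at the membrane, was at 145 and 1370 CPM, and Ifi27l2a, a membrane protein of mitochondria and nucleus, at 369 and 3332 CPM. The receptors, kinases and other cytokine signalling genes of a separate list stayed near the background, with 1 higher and 1 lower of 17 and a median of 0.00. The Ly6c2-negative cells showed the same for the interferon targets, with 44 of 44 measured at least 1.5 times higher in BiDT, where 14.5% of 5928 genes were (8.99% were lower), and a median of 2.48. Whether the ratio differed between cells with and without Ly6c2 was not tested.

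**Figure D3:**
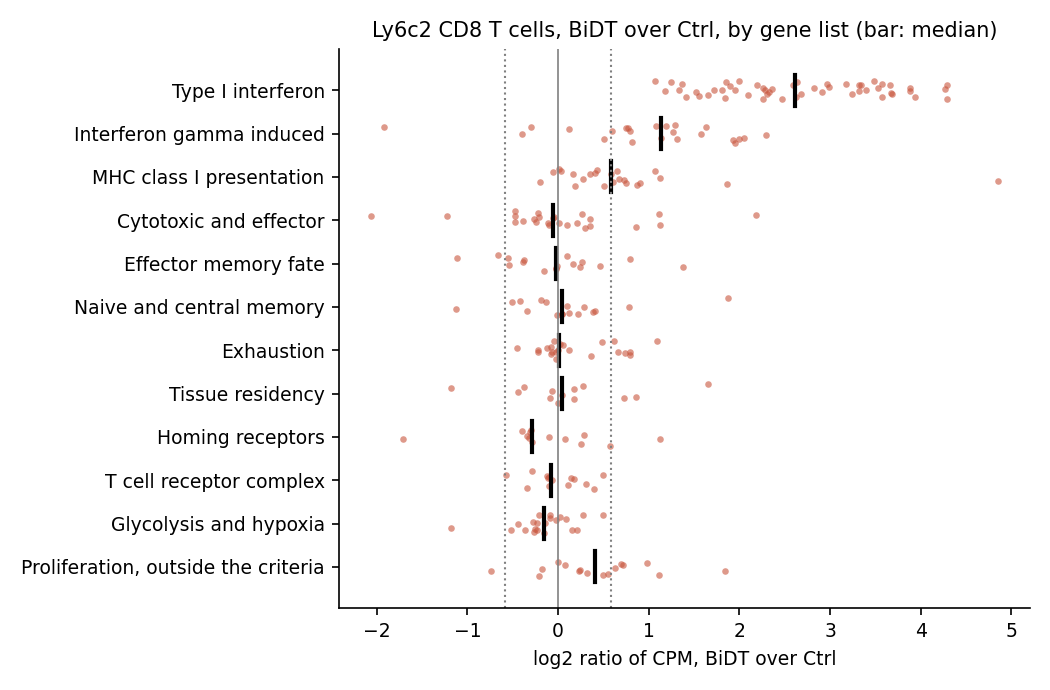
Log2 ratio of BiDT to Ctrl CPM in Ly6c2 cells for each measured gene of 12 lists, 1 point per gene, with a bar at the list's median and dotted lines at 1.5-fold in either direction. All points of the type I interferon list lie right of the lines, with a median of 2.61, and the cytotoxic list is spread around a median of -0.06.

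The promoters of Ly6c2 and of the 3 highest ranked genes held by many cells are shown to set the shared interferon motif of those genes beside the Ly6c2 start. They are RefSeq windows of the GRCm38.p6 build, from 250 bases before to 50 after the transcript start, written 5′ to 3′ on the strand of the gene. Capitals mark the core of the interferon-stimulated response element (GAAA, any 2 bases, then GAAA), searched on both strands. Usp18 is not in that table, and genes with at least 25% of their BiDT UMIs in 1 cell were passed over, a step chosen after their values had been seen. Ly6c2 has 2 entries in the table and the first is shown, on the minus strand at chr15:75111922-75112221. Rsad2 is on the minus strand at chr12:26456403-26456702, Ddx60, an antiviral RNA helicase, on the plus strand at chr8:61927837-61928136, and Oas3, which makes the messenger that activates RNase L, on the minus strand at chr5:120777610-120777909.
Ly6c2: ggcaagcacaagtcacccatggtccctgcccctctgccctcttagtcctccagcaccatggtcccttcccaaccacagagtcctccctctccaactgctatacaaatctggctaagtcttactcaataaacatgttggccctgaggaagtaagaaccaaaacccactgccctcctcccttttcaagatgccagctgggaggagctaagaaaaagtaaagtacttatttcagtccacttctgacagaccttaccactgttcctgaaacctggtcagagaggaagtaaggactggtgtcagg
Rsad2: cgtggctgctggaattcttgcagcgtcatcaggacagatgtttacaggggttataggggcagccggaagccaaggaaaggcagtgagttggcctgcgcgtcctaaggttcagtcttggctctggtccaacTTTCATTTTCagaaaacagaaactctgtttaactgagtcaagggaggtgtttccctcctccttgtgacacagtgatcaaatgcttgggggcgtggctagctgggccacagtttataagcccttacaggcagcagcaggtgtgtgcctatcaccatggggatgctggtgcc
Ddx60: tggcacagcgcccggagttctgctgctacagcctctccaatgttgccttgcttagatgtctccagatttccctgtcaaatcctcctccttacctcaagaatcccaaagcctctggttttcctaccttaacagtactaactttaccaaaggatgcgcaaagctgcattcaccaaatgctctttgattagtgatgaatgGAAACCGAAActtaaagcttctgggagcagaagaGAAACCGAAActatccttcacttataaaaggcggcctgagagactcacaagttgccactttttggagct
Oas3: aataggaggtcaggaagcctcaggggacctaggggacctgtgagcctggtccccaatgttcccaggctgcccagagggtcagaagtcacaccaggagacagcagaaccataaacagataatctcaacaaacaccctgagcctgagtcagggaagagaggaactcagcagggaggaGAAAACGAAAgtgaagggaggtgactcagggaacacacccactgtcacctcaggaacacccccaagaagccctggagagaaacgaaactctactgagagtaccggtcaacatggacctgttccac

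The Rsad2 window held the motif 1 time, on the opposite strand, with its first base at -120 from the start. Ddx60 held it 2 times, first at -53, and Oas3 held it 1 time, at -75. The Ly6c2 window held 0, which says only that these letters are not in this window. The motif was held by 3.49% of all 27025 windows of the table, while among the 25 with an entry of the 31 highest ranked genes held by many cells the share was 60%, and among 44 genes of the type I interferon list with an entry it was 52.3%. Each match is a description of letters and not of binding. Ddx60 itself stood at 6.22 CPM in Ctrl and 120 CPM in BiDT Ly6c2 cells (log2 ratio 4.27, 3.13 to 5.73), and Oas3 at 15.5 and 239 CPM (3.94, 3.21 to 4.79).

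Genes of an interferon gamma list and of antigen presentation were higher to a smaller degree, and which interferon they followed was not tested. Of 23 measured genes that interferon gamma induces, 18 were higher in BiDT and 1 lower, with a median log2 ratio of 1.13, where 16.4% of all genes were higher and 5.75% lower. The GTPase genes Iigp1 (2.30) and Irgm1 (2.05) and the chemokine gene Cxcl10 (1.64) were among the higher. Cxcl9, the chemokine most closely tied to interferon gamma, was the lower one, at 82.9 CPM in Ctrl, where 1 cell held 43.8% of its UMIs, and 21.9 CPM in BiDT (log2 ratio -1.92, -2.46 to -1.40). For MHC class I presentation, 11 of 23 genes were higher and 0 lower, against the same 16.4% and 5.75%, with a median of 0.58. H2-K1, a classical class I heavy chain, was at 3271 and 5970 CPM, and H2-T22, a non-classical one, at 164 and 596 CPM (log2 ratio 1.86, 1.63 to 2.11). B2m, the light chain they share, differed by 0.17 on the log2 scale, and Canx, a chaperone of folding heavy chains, by -0.05.

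Gzmb was higher in BiDT Ly6c2 cells, while the cytotoxic genes as a group were mixed. Granzyme B, the protease that killer cells release, had 624 UMIs in 140 Ctrl cells and 6863 UMIs in 690 BiDT Ly6c2 cells, 646 CPM (597 to 699) and 2941 CPM (2872 to 3011), a log2 ratio of 2.19 (2.07 to 2.31). In cells thinned to 1000 UMIs it was found in 27.5% of Ctrl and 68.4% of BiDT Ly6c2 cells, against 0.81% and 6.83% of non-immune cells. The non-immune cells were deeper before thinning. Unthinned, the shares were 49.3% and 80.8% of Ly6c2 cells, against 4.56% and 36.8% of non-immune cells. Of the 25 measured genes of the cytotoxic list, 4 were higher and 2 lower, near the shares of all genes, with a median of -0.06. Gzmc, a further granzyme, was at 189 and 410 CPM, Tnf at 82.9 and 179 CPM. Gzma, the granzyme of tryptase type, was at 572 and 437 CPM (log2 ratio -0.39), and Prf1, the pore former, at 444 and 566 CPM (0.35), neither of them past 1.5-fold. The Gzma ratio ranged from -1.37 with thinned cells to 0.40 without cells holding a macrophage gene UMI, so no direction can be given. Gzmc lay below 10% of its level in another population in both libraries, a level that free RNA could reach.

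Ccl5 and Xcl1, chemokine genes of effector cells, were the 2 lower genes of the cytotoxic list. Ccl5, which attracts T cells, was at 1752 CPM in Ctrl against 750.3 CPM in BiDT (log2 ratio -1.22, -1.32 to -1.13). Xcl1, which draws XCR1+ dendritic cells, was at 248 and 59.1 CPM (-2.07, -2.38 to -1.76). Ifng, the gene of interferon gamma, was at 653 and 700 CPM (0.10, -0.03 to 0.24), but 1 Ctrl cell held 51.3% of its Ctrl UMIs. In the same way single Ctrl cells held 43.3% of the UMIs of Ccl4 and 30.7% of those of Ccl3, further chemokine genes, which were at 2804 and 3230 CPM and at 620.5 and 1130 CPM. The Ctrl levels of these genes do not describe the Ctrl cells at large. Among other genes, Cd7, a T and NK cell surface protein, was at 65.3 and 15.9 CPM (-2.04), and Gapdh, an enzyme of glycolysis, at 1908 and 845 CPM (-1.18). The calmodulin-binding gene Nrgn (-1.31), the calcium-binding gene S100a11 (-1.25) and Rgs10, a brake of G protein signalling (-1.62), were also among the lowest. Gapdh was the 1 lower gene of 21 measured glycolysis genes, with 0 higher, where 5.75% of all genes were lower and 16.4% higher.

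Memory, homing and exhaustion genes differed little between the libraries as groups. Of 17 effector and memory genes 2 were higher and 2 lower, of 17 naive and central memory genes 2 and 1, of 13 homing genes 1 and 1, and of 13 residency genes 3 and 1. The group medians were -0.02, 0.04, -0.29 and 0.05, and with 16.4% of all genes higher and 5.75% lower, these counts are near the background. Cx3cr1, the fractalkine receptor of circulating effector cells, was lower in BiDT, at 97.4 and 45.0 CPM (log2 ratio -1.11), and Tbx21, the gene of the effector factor T-bet, higher, at 73.5 and 127 CPM (0.79). Cxcr3, the receptor of Cxcl9 and Cxcl10, was lower, with 42 UMIs in Ctrl and 31 in BiDT, 43.5 and 13.3 CPM (-1.71, -2.43 to -1.01). Cd69, an early activation and retention protein, was higher, at 193 and 350 CPM (0.86).

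Of the 22 measured exhaustion genes, 6 were higher in BiDT and 0 lower, against 16.4% and 5.75% of all genes, with a median of 0.01. Havcr2, the TIM-3 gene, was at 88.1 and 176 CPM and Pdcd1 at 352 and 271 CPM, but the criteria used both. Entpd1, the ectoenzyme CD39 of terminally exhausted cells, was at 69.4 and 148 CPM (log2 ratio 1.09, 0.71 to 1.49). Tnfrsf4, the costimulatory receptor OX40, differed by 0.66 and Irf4, a factor of T cell receptor signalling, by 0.79. Lag3, an inhibitory receptor, was at 510 and 782 CPM (0.62). Tox, the factor of the exhausted lineage, was at 38.3 and 36.4 CPM (-0.07). T cell receptor genes gave 0 higher and 0 lower of 14, with Trac at 482 and 324 CPM (-0.57).

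Within each library the Ly6c2 cells were then set beside the Ly6c2-negative cells. These ratios share no cells between libraries, but the cells were split by 1 of their own genes, so each value is a description. Few genes were past 1.5-fold in both libraries in the same direction, 0.428% of 6072 genes higher and 1.04% lower. In Ctrl alone the shares were 2.98% higher and 6.68% lower of 6214 genes, and in BiDT 6.83% and 7.97% of 6955. Genes past the fold were on the higher side in 30.8% of cases in Ctrl and 46.2% in BiDT, and in 44.2% and 66.7% with sums scaled by the trimmed mean of M-values (TMM), so the balance of higher and lower genes depends on the scaling. Ly6c2 cells were also the deeper cells in both libraries, by the medians given above.

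Interferon-induced genes were among the highest with Ly6c2 in both libraries. Ifitm1, an interferon-induced membrane protein, stood at 532 CPM in Ly6c2 cells and 255 in Ly6c2-negative cells of Ctrl (log2 ratio 1.06, 0.87 to 1.26), and at 288 and 165 CPM in BiDT (0.80, 0.50 to 1.12). Ifi27l2a was higher by 0.62 (0.41 to 0.84, and 0.33 to 1.05 over the alternatives) in Ctrl and 0.98 (0.88 to 1.07) in BiDT, and Ifitm3 by 0.70 and 0.74. Of the type I interferon list, 8 of 31 measured genes were past 1.5-fold higher in Ctrl and 20 of 52 in BiDT, with 0 lower in both and medians of 0.36 and 0.52. The medians of all genes were -0.04 and -0.01. Among all genes 2.98% were higher and 6.68% lower with Ly6c2 in Ctrl, and 6.83% and 7.97% in BiDT. The Ctrl count depended on the cells used, at 2 higher and 1 lower of 18 with thinned cells, 4 of 29 higher without the cells that a doublet caller scored, 15 of 28 with at least 2 Ly6c2 UMIs, and 0 of 4 without cells holding a UMI of Lyz2, Apoe, C1qa, C1qb or C1qc. In BiDT it was 26 of 50, 18 of 51, 24 of 52 and 24 of 48 under the same settings. Usp18 showed the widest gap of the genes above in BiDT, at 244 CPM in Ly6c2 cells and 90.1 in Ly6c2-negative cells (log2 ratio 1.44, 1.03 to 1.86), while Rsad2 was at 487 and 428 CPM there.

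Gzma, Gzmb and Gzmk, genes of granzymes, had higher levels in Ly6c2 cells than in Ly6c2-negative cells of both libraries. Gzma was at 572 CPM in Ly6c2 cells and 202 in Ly6c2-negative cells of Ctrl (log2 ratio 1.5, 1.30 to 1.71), and at 437 and 342 in BiDT (0.35, 0.14 to 0.57), where the ratio was -0.09 with thinned cells. The Gzmb ratios were 0.35 (0.20 to 0.51) in Ctrl and 1.22 (1.11 to 1.33) in BiDT, where 2941 CPM stood against 1262. Gzmk, the granzyme of early memory cells, was higher by 0.68 (0.06 to 1.30) and 1.13 (0.40 to 1.95), on 46 and 17 UMIs in the Ly6c2-negative cells. Ctsw, a cysteine protease of killer cells, was higher by 0.55 (0.36 to 0.75, and 0.38 to 0.95 over the alternatives) and 1.14 (0.81 to 1.47). The cytotoxic list as a whole had 7 of 24 genes higher in Ctrl, where 2.98% of all genes were, and 6 of 24 in BiDT, where 6.83% were, with 0 lower and medians of 0.39 and 0.31, while Prf1 differed by -0.12 and 0.10. Ifng was higher by 0.65 (0.46 to 0.84) in BiDT and by 0.77 in Ctrl, but there 1 cell held 51.3% of the UMIs and the ratio was -0.06 without the cells that a doublet caller scored. T cell receptor genes lay above 0 in 14 of 14 cases in BiDT, with a median of 0.32 and 1 past 1.5-fold. In Ctrl 7 of 14 lay above 0, with a median of 0.02. NK cell markers, a list that includes Gzma, summed to 1284 CPM in Ly6c2 and 661 in Ly6c2-negative cells of Ctrl, and to 1109 and 1039 in BiDT. The part of the T cell receptor genes and of the NK cell markers in these values was not tested.

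The naive, memory and homing lists went both ways with Ly6c2 in Ctrl. Klf2, Ccr2 and Cxcr3 were past 1.5-fold higher there, and Ccr7 was past it lower. Of 14 measured naive and central memory genes, 3 were higher and 2 lower with Ly6c2 in Ctrl (median -0.10). Of 13 homing genes 2 were higher and 1 lower (0.16), and of 17 effector and memory genes 2 and 1 (0.08). Among all genes of Ctrl 2.98% were higher and 6.68% lower. In BiDT the counts were 0 and 2 of 17, 1 and 0 of 12, and 2 and 0 of 17, against 6.83% and 7.97%. Klf2, the factor that drives exit into the blood, was at 155 CPM in Ly6c2 cells and 71.8 in Ly6c2-negative cells of Ctrl (log2 ratio 1.11, 0.75 to 1.48), and at 206 and 156 in BiDT (0.41, 0.08 to 0.74). Ccr2, a chemokine receptor of effector T cells and monocytes, was at 214 and 107 CPM in Ctrl (1.01, 0.70 to 1.31), and at 163 and 151 in BiDT (0.11). Cxcr3 had 42 and 11 UMIs in Ctrl, a log2 ratio of 2.61 (1.63 to 3.72), and 31 and 3 in BiDT, too few to be measured. Ccr7, a lymph node homing receptor, was lower with Ly6c2 in both, by -1.72 (-2.09 to -1.36) and -0.97 (-1.33 to -0.60), within reach of free RNA, and the BiDT ratio was 0.19 without the cells that held a UMI of the macrophage genes.

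Several genes known from macrophages were among the lowest with Ly6c2, but the list of monocyte and macrophage markers did not share this in Ctrl, with 2 of 14 higher and 0 lower. In BiDT 0 were higher and 4 lower. Ccl24, a chemokine of macrophages, was lower with Ly6c2 by -1.69 in Ctrl and -2.61 in BiDT, Mmp12, the macrophage elastase, by -1.22 and -1.02, and Nos2, the inducible nitric oxide synthase, by -1.05 and -0.90. In BiDT the Ccl24 ratio was 0.09 with cells thinned to 1000 UMIs, and the Mmp12 ratio 0.58 without the cells that held a UMI of Lyz2, Apoe, C1qa, C1qb or C1qc. Chil3, a chitinase-like protein of macrophages, was lower by -3.85 and -1.24, but 1 Ly6c2-negative Ctrl cell held 91.1% of its UMIs there and the Ctrl ratio with thinned cells was 0.59. Nrp1, a semaphorin receptor of regulatory and exhausted T cells, was lower by -0.86 in both, and Lag3 by -0.37 and -0.18. Of 22 exhaustion genes, 3 were lower and 1 higher in Ctrl, where 6.68% of all genes were lower, and 2 lower and 0 higher in BiDT, a share near the 7.97% of all genes. The monocyte and macrophage markers summed to 2534 CPM in Ly6c2 and 2177 in Ly6c2-negative cells of Ctrl, and to 3125 and 4090 in BiDT, and their part in these values was not tested.

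**Figure D4:**
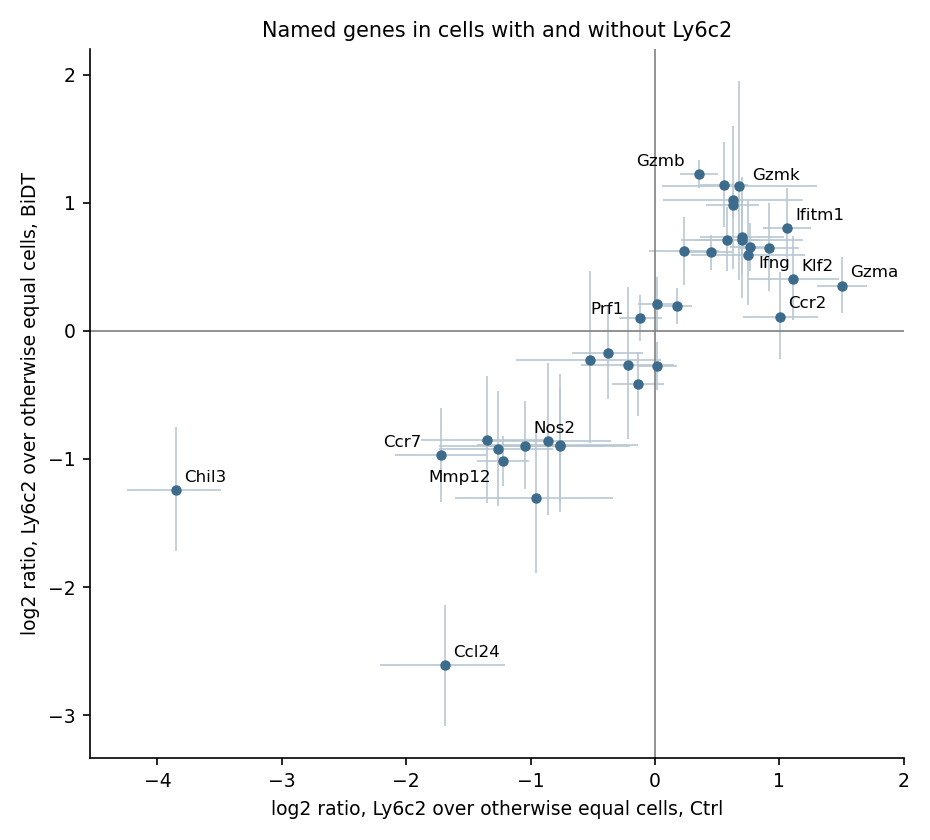
Log2 ratio of Ly6c2 cells to Ly6c2-negative cells in Ctrl (horizontal) and BiDT (vertical) for named genes measured in both libraries, 1 point per gene, with 95% intervals of counting error. Ifitm1 and Gzma lie to the upper right at 1.06 and 0.80, and at 1.5 and 0.35, and Ccl24 lies to the lower left at -1.69 and -2.61.

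The other Ly6 genes followed Ly6c2 in part. Ly6a, the Sca-1 gene, which is induced by interferon, stood at 513 CPM in Ly6c2 cells and 375 in Ly6c2-negative cells of Ctrl, and at 1250 and 818 in BiDT. Ly6e, a restriction factor of viral entry, was at 729 and 596 in Ctrl, and at 1080 and 863 in BiDT. In Ly6c2 cells the BiDT to Ctrl log2 ratio was 1.28 (1.15 to 1.43) for Ly6a and 0.57 for Ly6e. Ly6c1, the nearest relative of Ly6c2, had 4 UMIs in Ctrl and 69 in BiDT, of which 1 cell held 85.5%, so that no direction can be read. Such single cells also gave the highest BiDT to Ctrl ratios of all, those of Jchain of plasma cells, Col1a1, Col1a2 and Col3a1 of fibroblasts, Saa3, C4b and Gpx3, for which 1 BiDT cell held from 75.6% to 98.8% of the UMIs.

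Levels were also followed over bins of 0, 1, 2 to 3, and 4 or more Ly6c2 UMIs. The summed type I interferon list was at 2128, 2027, 2937 and 3733 CPM over these bins in Ctrl, and at 10997, 13486, 15110 and 18414 CPM in BiDT. Every BiDT bin lay above every Ctrl bin. Gzmb stood at 506, 439, 801 and 722 CPM in Ctrl, and at 1262, 1242, 2263 and 3795 CPM in BiDT, where the bin of 1 UMI was level with the Ly6c2-negative cells and the upper bins were higher. Gzma stood at 202, 382, 574 and 807 CPM in Ctrl, and at 342, 408, 388 and 471 CPM in BiDT. Lag3 ran the other way in Ctrl, at 659, 630, 517 and 350 CPM, and Ccr7 in BiDT, at 159, 136, 101 and 54.4 CPM.

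Depth moved with the bins, and a deeper cell is more likely to show any gene. Median UMIs per cell were 2487.5, 2480.5, 2954 and 3488 in Ctrl, and 1748, 1812, 2009 and 2729.5 in BiDT, while CPM values are relative to each bin's own total. Monocyte and macrophage markers stood at 2177 CPM in the first and 2997 in the last Ctrl bin, and at 4090 and 2704 CPM in the first and last BiDT bin. The part of depth and of these markers in the trends was not tested.

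**Figure D5:**
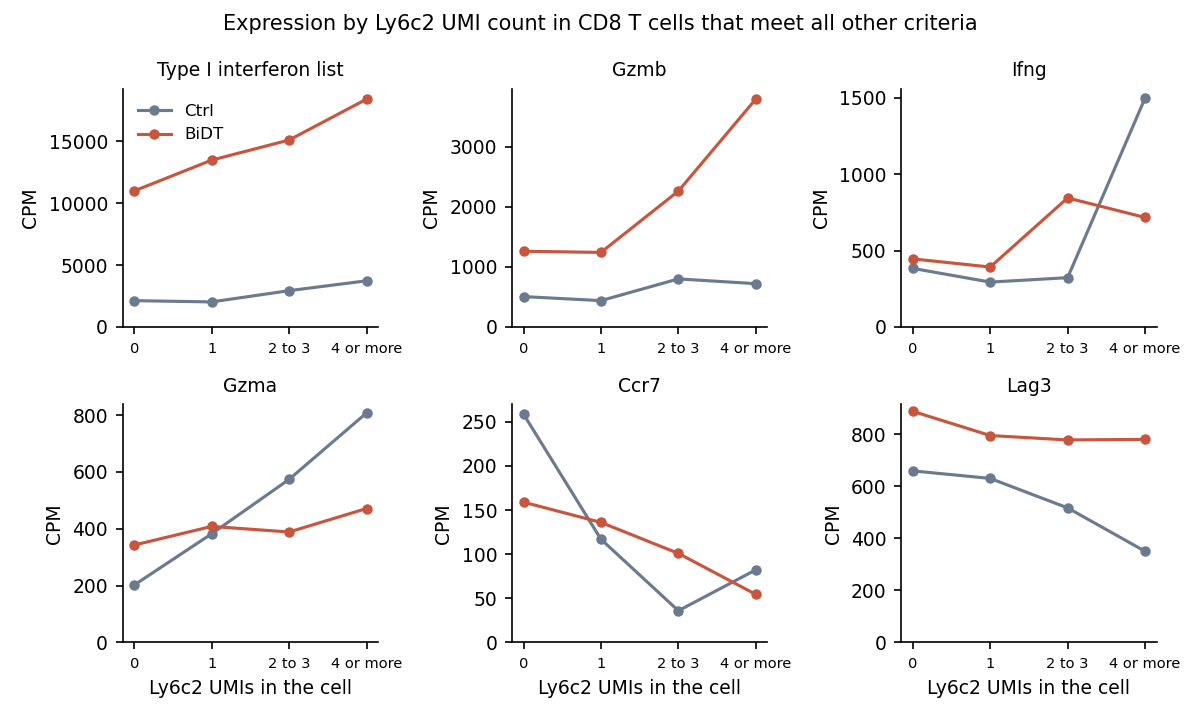
Level in CPM of the summed type I interferon list and of single genes by bin of Ly6c2 UMIs per cell, in Ctrl and BiDT. The interferon list reaches 3733 CPM in Ctrl and 18414 CPM in BiDT in the bin of 4 or more. The Ctrl level of Ifng in that bin, 1497 CPM, includes the single cell that held most Ifng UMIs of the Ctrl Ly6c2 cells.

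The relation was also read from the interferon genes to Ly6c2, with each cell thinned to 1000 UMIs. BiDT cells with 0 to 2 UMIs of the type I interferon list had Ly6c2 in 23.4% (11 of 47, 12.3 to 38.03%), and those with 24 or more in 74.1% (143 of 193, 67.3 to 80.1%). In Ctrl, where most cells had few such UMIs, Ly6c2 was found in 15.0% of the cells with 0 to 2 (82 of 547) and 26.2% of those with 3 to 5 (56 of 214). The median number of interferon list UMIs per 1000 was 2 in Ctrl, with and without Ly6c2, and 15 with and 9 without it in BiDT. BiDT cells with 0 to 2 such UMIs were thus few. The interval of their Ly6c2 share held the 15.0% of the Ctrl cells with 0 to 2 such UMIs. With 3 to 5 such UMIs the BiDT share was 29.3% (34 of 116, 21.2 to 38.5%), against the 26.2% of Ctrl. With 6 to 11 it was 25% in Ctrl (13 of 52, 14.0 to 38.9%) and 56.9% in BiDT (153 of 269, 50.7 to 62.9%). These intervals did not overlap. Few Ctrl cells had 12 or more. The part of the interferon genes in the Ly6c2 difference between libraries was not tested.

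Beside the other CD8 T cells of the same libraries, the Ly6c2 cells held a middle place in most of the levels compared. Gzmb was at 646 CPM in Ctrl and 2941 in BiDT Ly6c2 cells, at 1166 and 5262 in CD8 T cells with both Pdcd1 and Havcr2, at 1226 and 4295 in cycling cells and at 385 and 2264 in cells with Tcf7. The exhaustion list, which holds genes used to define these groups, summed to 4193 and 4727 CPM in Ly6c2 cells, 5535 and 6234 with Pdcd1 and Havcr2, and 2346 and 2373 with Tcf7. The type I interferon list summed to 2837 and 16665 CPM in Ly6c2 cells, 2416 and 17013 with Pdcd1 and Havcr2, 1765 and 13106 in cycling cells, and 3339 and 11958 with Tcf7. Klf2 was at 155 and 206 CPM in Ly6c2 cells and at 460.0 and 263 in the cells with Tcf7. The other groups were not split by Ly6c2, which was found unthinned in 46.9% of Ctrl and 87.9% of BiDT cells with Pdcd1 and Havcr2. For cycling cells the shares were 44.1% and 90.4%, and for cells with Tcf7 58.8% and 86.4%. Cycling and Tcf7 cells met no other state criterion, so these groups can share cells. The groups differ in depth, with medians of 3410, 5118 and 3277.5 UMIs in Ctrl for the Pdcd1 and Havcr2, cycling and Tcf7 cells, and no difference among them was tested.

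Leaving out each cell with a UMI of the macrophage genes Lyz2, Apoe, C1qa, C1qb or C1qc left 56 Ctrl and 353 BiDT Ly6c2 cells. The step removed 80.3% of the Ctrl and 58.7% of the BiDT Ly6c2 cells. The Ly6c2 cells then made up 30.4% and 73.4% of the otherwise equal cells, a log2 ratio of 1.27 in place of 1.12. They were 0.172% and 1.03% of all filtered cells, whose number was left unchanged, a log2 ratio of 2.58 in place of 1.51. The median of the type I interferon list was 3.27 in place of 2.61. These 5 genes are part of a longer marker list, of which 92.6% of Ctrl and 89.8% of BiDT Ly6c2 cells held a UMI.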

How the data were processed

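The files the authors deposited hold raw counts of UMIs, without normalization, for 32589 genes in each of 2 libraries. Cell Ranger 7.1.0 and the GRCm39 build are named in the submitters' processing notes. The labels' protocols name a 10x Genomics workflow, while the barcodes have 3 segments of 9 bases, so the counting step is not certain. The cells, their criteria and all gene lists were chosen with earlier results of these data known.

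Counts were summed over the cells of each library and given as CPM. Pairs of sums were compared as a log2 ratio with an exact conditional binomial 95% interval, for genes with at least 50 UMIs over both. A gene was past the fold at 1.5 times. Shares have exact Clopper-Pearson intervals, and cells were thinned to 1000 UMIs. Free RNA reach means a CPM below 10% of another population in both libraries. Intervals cover counting error only, and no model or test was fitted.

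The named genes are the 10 highest and 10 lowest log2 ratios per comparison, with 50 CPM in the higher sum and an interval that excludes 0, without mitochondrial, ribosomal, receptor, predicted and sex-linked genes, genes of the criteria and genes within reach of free RNA. To these come the 2 highest and 2 lowest of each list and a set of single genes. Further genes were named after their values were seen. Barcodes were not filtered for doublets, but Scrublet scores of 0.15 or more (scanpy 1.11.5; 33 Ctrl and 109 BiDT Ly6c2 cells) were removed as an alternative. Scaling by TMM used edgeR 4.0.16 in R 4.3.3. Python 3.11.15, numpy 2.4.6, scipy 1.17.1 and pandas 2.3.3 served for the rest, and the scripts were tested on simulated data. A total of 48 symbols were borne by several genes, and 9 list symbols were absent. A few genes are not reported here.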

Additional observations from a re-analysis of the deposited data

How the results depend on the processing

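No paired analysis was possible because each group is 1 pooled library, and for the same reason no replicate could be left out. The share of Ly6c2 cells, as a log2 ratio of BiDT to Ctrl, was 1.51 of filtered and 1.12 of otherwise equal cells. It was 2.01 and 1.63 with cells thinned to 1000 UMIs, 1.94 and 1.55 with at least 2 Ly6c2 UMIs, and 2.58 and 1.27 without cells holding a macrophage gene UMI. All measured genes of the type I interferon list were higher in BiDT Ly6c2 cells under each of the 12 alternatives run. Their median was 3.27 without cells holding a macrophage gene UMI.

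Counts of genes past the fold followed the minimum of UMIs. With 20 UMIs, 1875 were higher and 716 lower in BiDT than in Ctrl Ly6c2 cells, and with 1 UMI in each sum 2725 and 1884, in place of 1184 and 415. For Ly6c2 against Ly6c2-negative cells they were 492 and 972, then 1837 and 2037, in Ctrl (185 and 415 as reported), and 1002 and 1134, then 1464 and 2912, in BiDT (475 and 554). In BiDT 349 were lower with TMM scaling, and 312 higher and 292 lower with thinned cells. Without cells holding a macrophage gene UMI, where fewer genes were measured, 766 were higher in BiDT against Ctrl, 102 higher and 151 lower with Ly6c2 in Ctrl, and 345 lower in BiDT.

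Each list median and each named gene was counted 1 time per alternative. Over all alternatives 58 of 576 such median values and 135 of 3334 gene values changed sign, most of them from values within 1.5-fold. Of the 24 median values and 1546 gene values past 1.5-fold as reported, 1 and 11 did. The 24 were medians of the interferon gamma list and the Ly6 family, without the type I interferon list. Many of the 1546 gene values could not change sign. Lowering the minimum of UMIs changed which genes were measured but not a gene's ratio. TMM scaling moved ratios by -0.06, 0.06 or 0.10, too little to reverse a value past 1.5-fold. The 1 median value that changed was that of the Ly6 family in BiDT against Ctrl, at -0.14 with 1 UMI in each sum. For Ccl24 in BiDT against Ctrl the values were 0.029 with equal weight per cell, 0.97 with thinned cells and 0.33 without cells rich in markers of other types, a setting added after the data were seen. With thinned cells Chil3 was 0.59 and Mga 0.22 in Ctrl, and Ccl24 0.091 in BiDT, for Ly6c2 against Ly6c2-negative cells. Ifng in Ctrl was -0.055 without cells scored by Scrublet and -0.17 without cells rich in other markers. Without cells holding a macrophage gene UMI, Ikzf2 in BiDT against Ctrl was -0.40, and Mmp12 and Ccr7 with Ly6c2 in BiDT were 0.58 and 0.19. The cause of these changes was not tested. Totals of 965347 and 2333700 UMIs limit what low genes such as Cxcr3 or Gzmk can show.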
